A study of Homo sapiens with 6 samples.

Results

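The EGF family and its receptors were followed through 10 genes of the 21293 in the table. They were chosen by gene symbol and not by a cut on any measured value, though with earlier results of these data known. The 7 ligand genes were EGF, TGFA, AREG, EREG, HBEGF, BTC and NRG1, and the 3 receptor genes were EGFR, ERBB2 and ERBB3. All 10 were detected, and all 10 passed the filter used for testing (a mean of at least 10 normalized counts over the 6 libraries). Transcripts were sequenced from H2087-LCC cells, a population competent for latency that had been selected in mice from a human lung adenocarcinoma (LUAD) line and regarded as a model of dormant metastasis. The cells were incubated with SB505124 for 3 days (SB), TGFβ for 3 days or TGFβ for 7 days, with 2 libraries per group. SB inhibits the type I TGFβ receptor kinase and sets a baseline without endogenous TGFβ signaling, so that no group was left untreated. The cells were grown alone in culture in low serum, from a single RAS-mutant parental line, and no SB library at 7 days was analyzed here. Time in culture and duration of TGFβ therefore cannot be told apart in the comparisons that involve the 7-day cells.

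EGF family ligands are made as membrane-anchored precursors that are cut from the cell surface by ADAM proteases, and they then act on the same cell or on its neighbors. EGF, TGFα and amphiregulin bind EGFR, betacellulin, HB-EGF and epiregulin bind EGFR and ERBB4, and neuregulin 1 binds ERBB3 and ERBB4. ERBB2 has no known ligand and ERBB3 has little kinase activity, so both signal mainly in pairs with other receptors, through the RAS-ERK and PI3K pathways. In lung adenocarcinoma this receptor family is known for activating EGFR mutations and for ligand-driven growth of tumor cells.

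The TGFβ response itself was present in all treated libraries. Normalized counts of SMAD7, a direct TGFβ target and feedback inhibitor, were 112 and 79 in the SB libraries, 916 and 799 at 3 days and 854 and 747 at 7 days. CDH1, which encodes E-cadherin, read 371 and 635 with SB, 28 and 24 at 3 days and 10 and 9 at 7 days. Epithelial markers (KRT7, KRT8, KRT18, KRT19, EPCAM and CDH1) summed to 88277 to 112407 in every library. KRT8 and KRT18 made up most of that sum, and single markers went both ways. EPCAM read 10180 and 9106 with SB and 2988 and 3277 at 7 days, and KRT7 5860 and 6183 and then 13979 and 11230. Markers of leukocytes (PTPRC, CD3E and CD14) summed to 4 to 10, of endothelium (PECAM1, VWF and CDH5) to 56 to 78 and of fibroblasts (DCN, LUM and PDGFRA, with LUM at 0 throughout) to 8 to 16. Library totals ran from 34306283 to 36340734 normalized counts, or about 32000000 to 40000000 assigned reads as estimated from the low values. The pair of SB libraries stood further apart than the treated pairs. Their lung lineage markers (NKX2-1, SFTPB, NAPSA and SOX2) summed to 5539 and 14073, against 1348 to 1930 in the treated libraries. Most of the gap between the SB libraries was SFTPB (1104 and 8273), while NKX2-1 read 2784 and 2908, and what part this had in the differences between groups was not tested. Among the members, 5 of 10 differed by more than 0.5 on the log2 scale between the SB libraries, against 12.0% of all tested genes. At 3 days 0 of the 10 did so (7.34% of all tested genes) and at 7 days 1 did (AREG, against 5.94%). In these bulk cultures, fewer cells that express a gene and less RNA per cell cannot be told apart.

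Most ligand genes were lower under TGFβ, and EGF was the member called higher in the fit described here. Under upper-quartile scaling EGFR was called higher as well at 7 days. After 3 days 5 of the 10 genes passed the test (limma on log2(normalized count + 1), Benjamini-Hochberg adjusted p under 0.05 over 14395 genes) and all 5 were lower than with SB. This count reads against 29.0% of all tested genes, of which 14.9% were higher and 14.0% lower. After 7 days 8 of the 10 passed, 1 higher and 7 lower, where 54.5% of all tested genes passed, 27.7% higher and 26.9% lower. Between 3 and 7 days of TGFβ 4 of the 10 passed, 1 higher and 3 lower, where 33.2% of all tested genes passed, 17.0% higher and 16.2% lower. The median log2 fold change over the members was -0.56 at 3 days, -0.87 at 7 days and -0.04 between both TGFβ times, beside -0.02, 0.00 and 0.02 over all tested genes. Ligands made up most of the calls, with 4 of 7 lower at 3 days, then 1 higher and 6 lower at 7 days. Of the 3 receptors only ERBB3 passed, at 3 and at 7 days. Both times were compared with the same SB libraries.

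**Figure D1:**
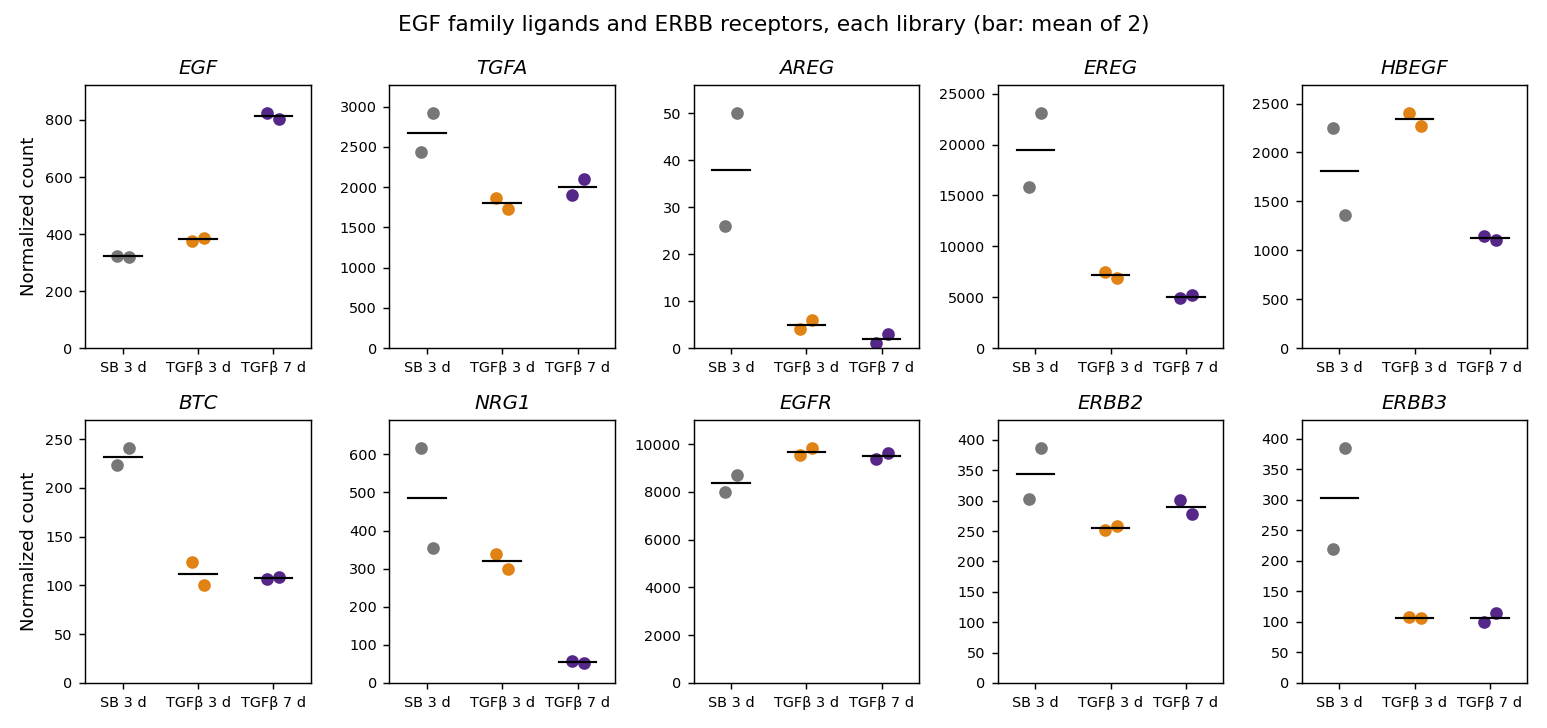
Normalized count (y axis, linear, from 0) of each of the 10 genes in every library, with SB at 3 days in gray, TGFβ at 3 days in orange and TGFβ at 7 days in purple; a point is a library and a bar the mean of 2. EGF reached 824 and 805 at 7 days, EREG fell from 15859 and 23088 with SB to 4909 and 5217, and the SB points lie apart for HBEGF, NRG1, EREG and ERBB3.

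**Figure D2:**
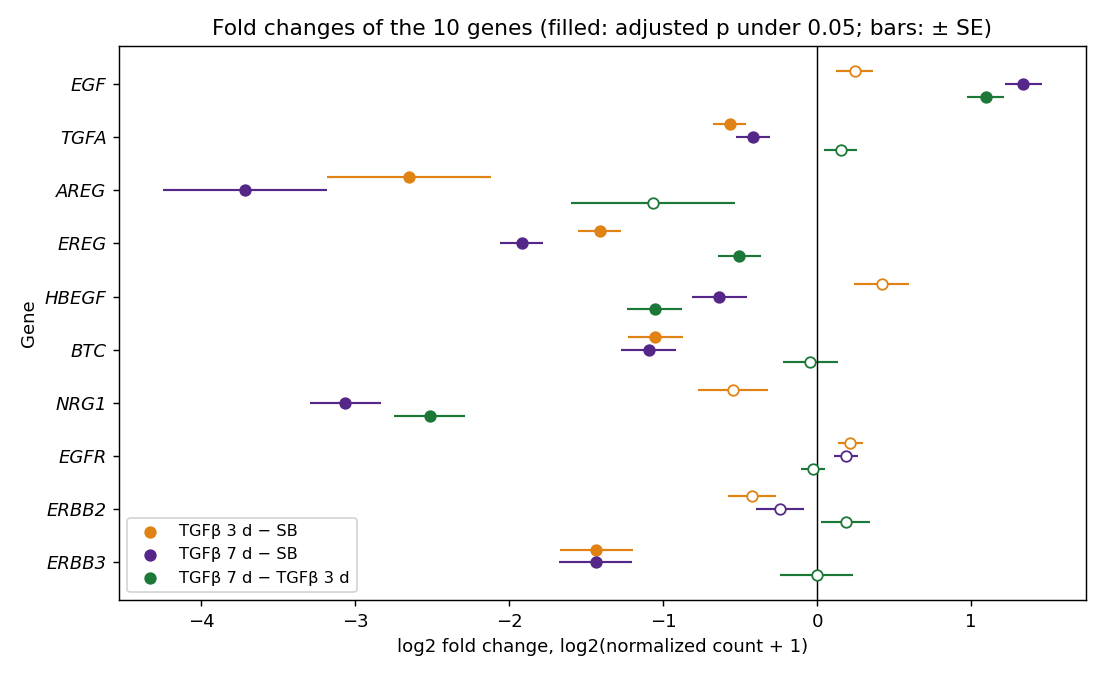
Log2 fold change of each gene (x axis) for TGFβ 3 days against SB (orange), TGFβ 7 days against SB (purple) and TGFβ 7 days against 3 days (green), with bars of 1 SE from limma; filled points passed an adjusted p of 0.05. AREG and NRG1 lie furthest to the left at 7 days, with -3.71 and -3.06, and EGF lies to the right with 1.34.

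EREG, AREG and BTC lie in a cluster on the long arm of chromosome 4 with EPGN, the epigen gene. Their start sites spread over 545.5 kb, counted from EPGN to BTC. On GRCh37 EREG occupies chr4:75230862-75254466 and AREG chr4:75310853-75320722 on the plus strand, and BTC occupies chr4:75669969-75719733 on the minus strand. EGF, the ligand that rose, is on the same chromosome arm but far from the cluster, at chr4:110834039-110934922 on the plus strand. The sequences just upstream of these 4 start sites are shown because the 3 clustered genes fell together and EGF rose, so the choice followed the direction of change. They are the 250 bases before the RefSeq start on GRCh38.p14, in the direction of transcription, at chr4:74364895-74365144 for EREG, chr4:74444886-74445135 for AREG, chr4:74794524-74794773 (minus strand) for BTC and chr4:109912633-109912882 for EGF. Capitals mark an E2-box (CACCTG, or CAGGTG on the other strand), the letters bound by ZEB and SNAIL repressors, in the first 3, and an AP-1 site (TGANTCA) in EGF.
EREG: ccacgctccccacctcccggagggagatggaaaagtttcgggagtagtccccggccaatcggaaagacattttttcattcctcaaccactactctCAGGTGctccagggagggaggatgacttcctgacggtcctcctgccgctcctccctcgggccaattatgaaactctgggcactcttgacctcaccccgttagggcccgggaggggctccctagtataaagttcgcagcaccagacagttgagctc
AREG: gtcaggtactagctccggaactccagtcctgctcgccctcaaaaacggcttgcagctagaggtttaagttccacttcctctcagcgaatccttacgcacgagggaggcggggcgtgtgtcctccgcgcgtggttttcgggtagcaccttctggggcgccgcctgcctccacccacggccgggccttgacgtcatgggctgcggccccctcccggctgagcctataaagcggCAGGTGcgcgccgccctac
BTC: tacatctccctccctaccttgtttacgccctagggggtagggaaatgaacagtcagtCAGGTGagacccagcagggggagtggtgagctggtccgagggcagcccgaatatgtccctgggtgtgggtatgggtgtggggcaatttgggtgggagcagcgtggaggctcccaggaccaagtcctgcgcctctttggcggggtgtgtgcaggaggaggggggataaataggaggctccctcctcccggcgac
EGF: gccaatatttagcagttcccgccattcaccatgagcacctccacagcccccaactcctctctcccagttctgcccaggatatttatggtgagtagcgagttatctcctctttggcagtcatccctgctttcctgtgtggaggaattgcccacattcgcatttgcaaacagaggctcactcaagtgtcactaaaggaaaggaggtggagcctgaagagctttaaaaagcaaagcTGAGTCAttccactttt
The E2-box began 155 bases before the start in EREG, 19 in AREG and 193 in BTC, and the AP-1 letters began 17 bases before the start in EGF. Of the 8 members with a promoter in the RefSeq table, 6 had 1 start and TGFA and EGFR had 2, which gives 10 promoters. An E2-box was in 5 of the 10, the others being HBEGF at 248 bases and the second start of TGFA at 42 bases, whereas 17.5% of the 35116 promoters in the table held at least 1. AP-1 letters were found in 3 of 10, EGF, ERBB2 and the second start of EGFR, against 6.57% of all promoters, and the palindrome GTCTAGAC bound by SMAD proteins in 0 of 10, against 0.182%. NRG1 and ERBB3 had no entry in that table. These are matches of letters within a short window, and binding was not measured. Promoters of EPGN and of PARM1, the gene past BTC, are not among those shown or counted as members. Any link between a motif and the direction of change was not tested.

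EREG, which encodes epiregulin, had the highest counts of the ligand genes and carried the largest absolute loss of counts. Its normalized counts were 15859 and 23088 in the SB libraries, 7468 and 6921 after 3 days of TGFβ and 4909 and 5217 after 7 days. The 3 groups did not overlap and fell in order from SB to 3 to 7 days. EREG was 2.71-fold lower than SB at 3 days (log2 fold change -1.41, SE 0.14, adjusted p = 1.27e-05) and 3.85-fold lower at 7 days (-1.92, SE 0.14, adjusted p = 4.24e-07). The further fall between 3 and 7 days (-0.51, SE 0.14, adjusted p = 0.016) was smaller than either. It missed the threshold with low genes left in (adjusted p = 0.117), without the mean trend in limma (0.106), and on leaving out TGFβ 3 days library 1 (0.0685), TGFβ 7 days library 1 (0.0904) or TGFβ 7 days library 2 (0.0558).

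AREG, which encodes amphiregulin, had few counted reads in these libraries and fell with EREG. It read 26 and 50 with SB, 4 and 6 at 3 days and 1 and 3 at 7 days. All treated libraries lay below both SB libraries, and the 2 SB libraries themselves differed widely. The ratio of summed normalized counts was 7.6 for SB over 3 days (76 against 10, 95% interval 3.91 to 16.5) and 19.0 for SB over 7 days (76 against 4, 7.12 to 71.5), intervals that cover counting error only. In the fit across all genes the log2 fold changes were -2.65 (SE 0.53, adjusted p = 0.00284) and -3.71 (SE 0.53, adjusted p = 0.000113), and AREG did not pass between 3 and 7 days (-1.06, adjusted p = 0.145). The GRCh37 genome carries a near-identical copy of this gene, AREGB, at chr4:75480629-75490486. Of the 1348 windows of 50 bases in AREG exons, 1316 (97.6%) also occur elsewhere in the genome, against 0 to 3.95% for the other 9 members. Only uniquely mapped reads had been counted and AREGB was not among the gene symbols of the table, so the level of AREG and the size of its change are uncertain.

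BTC, which encodes betacellulin, fell by 3 days and stayed at that level. Its counts were 223 and 241 with SB, 124 and 100 at 3 days and 107 and 109 at 7 days, with the treated groups overlapping each other and neither reaching the SB range. BTC was 2.07-fold lower than SB at 3 days (log2 fold change -1.05, SE 0.18, adjusted p = 0.000979) and 2.15-fold lower at 7 days (-1.10, SE 0.18, adjusted p = 0.000316). Between 3 and 7 days the difference was -0.04 (SE 0.18, adjusted p = 0.875).

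The remaining genes of this region are given for comparison. EPGN, between MTHFD2L and EREG, was barely expressed, with 14 and 17 normalized counts under SB, 11 and 22 at 3 days and 13 and 15 at 7 days, and no comparison passed. MTHFD2L, a mitochondrial folate enzyme gene on the other flank of EPGN, read 205 and 247 with SB and 172 to 183 in the treated libraries, lower in all 4 treated libraries, but did not pass at 3 days (-0.36, adjusted p = 0.122) or 7 days (-0.31, adjusted p = 0.127). The low counts of EPGN gave it a wide error (SE 0.41, beside 0.18 for BTC). PARM1, the flanking gene past BTC, was lower at 3 days (-1.58, SE 0.39, adjusted p = 0.00956) and 7 days (-1.45, SE 0.39, adjusted p = 0.00755), from 32 and 72 with SB to 14 to 17 under TGFβ.

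**Figure D3:**
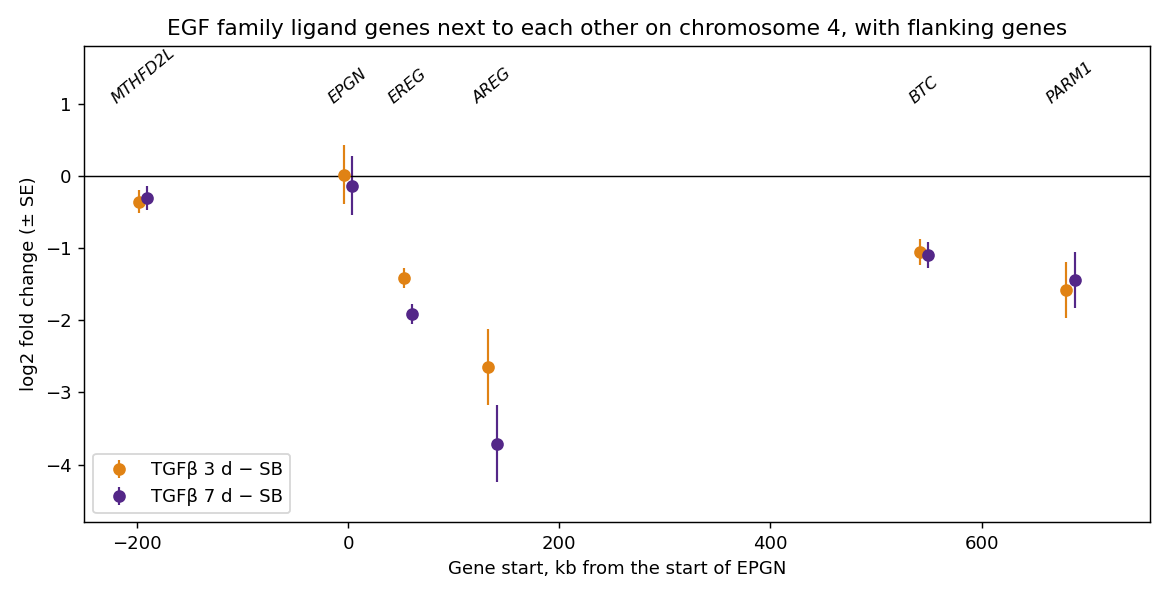
Log2 fold change against SB (y axis, bars of 1 SE) of the ligand genes in the chromosome 4 cluster and of both flanking genes, by the distance of the gene start from the start of EPGN in kb (x axis), for TGFβ at 3 days (orange) and 7 days (purple). EREG, AREG, BTC and PARM1 lie below 0, MTHFD2L lies below 0 without being called (-0.36 and -0.31), and EPGN lies close to 0 (0.02 and -0.13).

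EGF encodes the ligand that gives the family its name and was the member that rose. The SB libraries held 324 and 319 normalized counts, the 3-day libraries 377 and 385 and the 7-day libraries 824 and 805. Replicates were close and the groups did not overlap, with most of the gain falling after day 3. At 3 days EGF was 1.19 times the SB mean and did not pass the test (log2 fold change 0.24, SE 0.12, adjusted p = 0.149). At 7 days it was 2.53 times SB (1.34, SE 0.12, adjusted p = 2.6e-06) and 2.14 times the 3-day mean (1.09, SE 0.12, adjusted p = 7.68e-05).

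NRG1, which encodes neuregulin 1, the ERBB3 and ERBB4 ligand, showed the opposite late course. Its counts were 617 and 353 with SB, 339 and 300 at 3 days and 58 and 52 at 7 days. The 3-day libraries lay just under the lower SB library, and both 7-day libraries lay far below all others. NRG1 was 8.82-fold lower than SB at 7 days (log2 fold change -3.06, SE 0.23, adjusted p = 5.91e-07) and 5.81-fold lower than at 3 days (-2.52, SE 0.23, adjusted p = 2.66e-05). At 3 days the difference from SB missed the threshold (-0.55, SE 0.23, adjusted p = 0.0958). It depended on the SB library compared, since it was -0.95 without SB library 2 (adjusted p = 0.00522) and -0.15 without SB library 1. Exons of NRG1 also share 1835 and 189 bases with another annotated gene each on the same strand.

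HBEGF, which encodes heparin-binding EGF-like growth factor, was lower at 7 days than at 3 days. It read 2255 and 1356 with SB, 2402 and 2275 at 3 days and 1145 and 1105 at 7 days. The first SB library sat just under the 3-day cells, and the second lay between both treated groups. From 3 to 7 days HBEGF fell 2.08-fold (log2 fold change -1.05, SE 0.18, adjusted p = 0.00127). Against SB it was not called at 3 days (0.42, SE 0.18, adjusted p = 0.1) and was lower at 7 days (-0.64, SE 0.18, adjusted p = 0.00965). Both comparisons depended on which SB library was the baseline. Without SB library 2 the 3-day difference was 0.05 (adjusted p = 0.748) and the 7-day difference -1.003 (adjusted p = 5.64e-05). Without SB library 1 the 3-day difference was 0.79 (adjusted p = 0.000557) and the 7-day difference -0.27 (adjusted p = 0.0562), and the 7-day call was also lost with low genes left in (adjusted p = 0.0886) or without the mean trend (0.074).

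TGFA, which encodes TGFα, a high-affinity EGFR ligand, fell modestly. Its counts were 2440 and 2921 with SB, 1871 and 1732 at 3 days and 1902 and 2105 at 7 days, all treated libraries below the SB range. TGFA was 1.49-fold lower at 3 days (log2 fold change -0.57, SE 0.11, adjusted p = 0.00208) and 1.34-fold lower at 7 days (-0.42, SE 0.11, adjusted p = 0.00663), and the treated groups were not called apart (0.15, SE 0.11, adjusted p = 0.306). The 7-day call was lost without SB library 2 (-0.29, adjusted p = 0.0515) or without TGFβ 7 days library 1 (-0.34, adjusted p = 0.0718).

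EGFR, the receptor shared by most of these ligands, was abundant throughout and hardly moved. It read 8011 and 8697 with SB, 9536 and 9846 at 3 days and 9385 and 9630 at 7 days. The treated libraries all lay above the SB libraries, by a small margin. The mean was 1.16 times SB at 3 days (log2 fold change 0.22, SE 0.08, adjusted p = 0.0636) and 1.14 times at 7 days (0.19, SE 0.08, adjusted p = 0.0655), and the difference between the treated groups was -0.03 (SE 0.08, adjusted p = 0.821). Both differences from SB passed without SB library 2 (0.27, adjusted p = 0.035, and 0.25, adjusted p = 0.0276), and the 7-day one passed under upper-quartile scaling (0.21, adjusted p = 0.0453).

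ERBB3, the receptor for neuregulins and a docking protein for PI3K, was the receptor that fell. The SB libraries held 220 and 385 normalized counts, the 3-day libraries 108 and 106 and the 7-day libraries 99 and 115. SB libraries differed from each other more than any treated pair, and yet both lay above all treated libraries. ERBB3 was 2.83-fold lower at 3 days (log2 fold change -1.44, SE 0.24, adjusted p = 0.00078) and 2.83-fold lower at 7 days (-1.44, SE 0.24, adjusted p = 0.000328), with no difference measured between the treated groups (0.00, SE 0.24, adjusted p = 0.992). With only SB library 1 or only SB library 2 as the baseline, the log2 fold change ran from -1.84 to -1.03 for 3 days of TGFβ and from -1.84 to -1.04 for 7 days, with adjusted p of at most 0.00537.

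ERBB2, the partner receptor without a ligand, was not called in any comparison. Counts were 302 and 387 with SB, 251 and 258 at 3 days and 301 and 278 at 7 days, so that the 7-day libraries lay close under the lower SB library. The log2 fold change was -0.42 at 3 days (SE 0.16, adjusted p = 0.0606), -0.24 at 7 days (SE 0.16, adjusted p = 0.211) and 0.18 between them (SE 0.16, adjusted p = 0.39). Without SB library 1 ERBB2 passed as lower at 3 days (-0.60, adjusted p = 0.0175) and 7 days (-0.42, adjusted p = 0.0463), and equal library totals also moved the 3-day value past the threshold (-0.48, adjusted p = 0.0466). Exons of ERBB2 share 571 bases with MIEN1 and 144 with PGAP3, and those of EGFR share 186 with EGFR-AS1, all on the opposite strand, which the library kit does not mark. ERBB4, the remaining receptor of the family, read 8 and 9 with SB, 4 and 1 at 3 days and 0 and 1 at 7 days, under the filter for testing.

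To compare levels between genes, counts were divided by the length of each gene's merged exons. EREG was the highest member in each group, with 3410 normalized counts per kb with SB (SD 895, n = 2), 1260 at 3 days (SD 67.7, n = 2) and 886 at 7 days (SD 38.1, n = 2). With SB it was followed by HBEGF (604 per kb), TGFA (545) and EGFR (524), whose library ranges overlapped in that order. BTC (87.4) and EGF (42.1) came next, and ERBB2 (33.4), ERBB3 (25.8), AREG (23.1) and NRG1 (22.7) overlapped each with its neighbor. By 7 days the order was EREG, EGFR (596), TGFA (407), HBEGF (376), EGF (107), BTC (40.7), ERBB2 (28.0), ERBB3 (9.14), NRG1 (2.57) and AREG (1.22), and EGF had moved past BTC. Neighbors in this 7-day order by merged exons did not overlap. With the longest transcript as the length, 7 of the 10 places changed with SB and 2 at each TGFβ time, while EREG kept the top place and EGF again stood above BTC at 7 days. By that length TGFA and HBEGF overlapped at 7 days. The place of AREG is uncertain in all these orders. Of its exonic windows of 50 bases, 97.6% also occur elsewhere, and only uniquely mapped reads had been counted.

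Summed over the family, ligand transcripts were fewer under TGFβ and EREG took a smaller share of them. The 7 ligand transcripts summed to 4198 and 5269 normalized counts per kb with SB, 2606 and 2430 at 3 days and 1781 and 1862 at 7 days. EREG made up 66.1% and 76.7% of that sum with SB, 50.2% and 49.8% at 3 days and 48.3% and 49.1% at 7 days. EGF went from 1.01% and 0.794% with SB to 1.9% and 2.08% at 3 days and 6.07% and 5.67% at 7 days. Per-library shares of EREG, EGF, TGFA, HBEGF and AREG did not overlap between SB and either TGFβ time. Those of BTC and NRG1 overlapped SB at 3 days. TGFA took 11.8% and 11.3% with SB, 14.6% and 14.5% at 3 days and 21.7% and 23.0% at 7 days. HBEGF took 18.0% and 8.61%, then 30.8% and 31.3%, then 21.5% and 19.9%. Its share thus peaked at 3 days in these libraries. The receptor sum stayed between 550.6 and 651.7 per kb in all libraries, and EGFR made up 88.6% to 94.8% of it. These sums are descriptions of transcript levels and were not tested. AREG entered them with uniquely mapped reads over its full exon length, so its part, the ligand sum and the shares are uncertain to that extent.

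**Figure D4:**
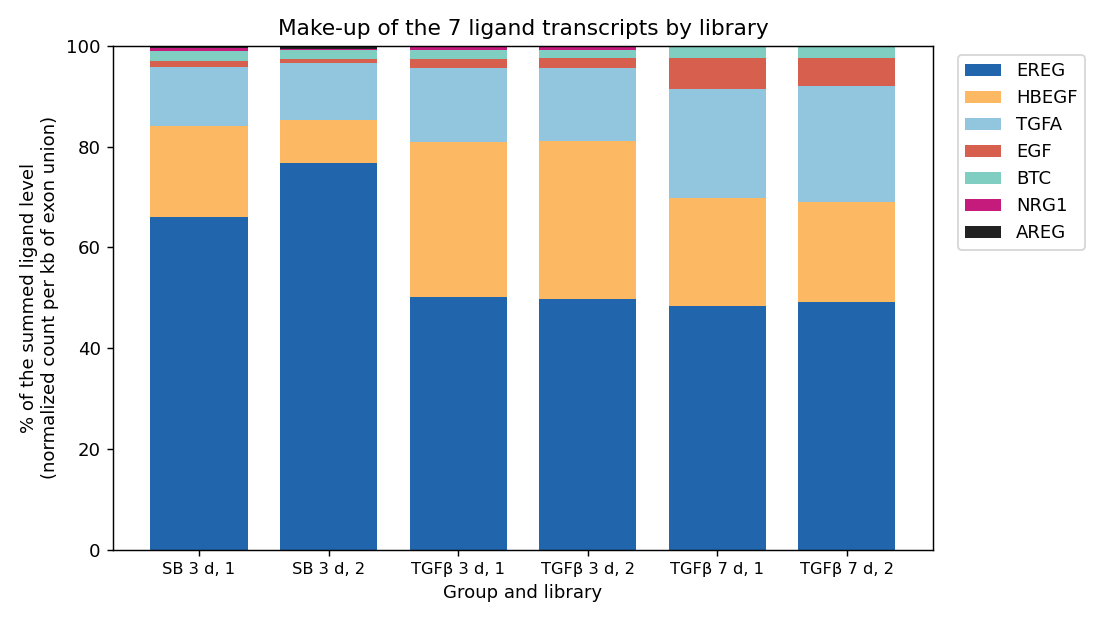
Share of each ligand in the summed ligand level (y axis, percent of normalized counts per kb of merged exons, from 0 to 100) in each of the 6 libraries (x axis). EREG takes 66.1% and 76.7% of the bar with SB and 48.3% and 49.1% at 7 days, and the EGF band widens from 1.01% and 0.794% to 6.07% and 5.67%. The AREG band is uncertain, since few of its reads can be mapped uniquely.

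Other genes of the pathway were read from 7 lists. Of the genes that release the ligands, all 5 (ADAM10, ADAM17, RHBDF1, RHBDF2 and FRMD8) were called higher than with SB at 7 days, where 27.7% of all tested genes were, and 1 of 5 was at 3 days, where 14.9% were. FRMD8, which stabilizes the iRhom and ADAM17 sheddase complex, read 622 and 581 with SB and 980 and 886 at 7 days (log2 fold change 0.63, SE 0.13, adjusted p = 0.00174). ADAM17, the main sheddase for TGFα, amphiregulin and HB-EGF, read 2135 and 2602 and then 3352 and 3389 (0.52, adjusted p = 0.00143), and RHBDF1, an iRhom that carries ADAM17 to the cell surface, 440 and 405 and then 693 and 514 (0.50, adjusted p = 0.0211). The count of 5 dropped to 3 without the filter on low values, without the mean trend, or without TGFβ 7 days library 1. The list median was 0.50 at 7 days, beside 0.00 over all tested genes.

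Among adaptors and proximal effectors 5 of 19 were higher, 0 lower and 14 not called at 3 days (background 14.9% higher and 14.0% lower), and 11 were higher and 1 lower at 7 days (list median 0.29). With 54.5% of all tested genes called at 7 days, these counts are close to the background for either direction together, and 27.7% is the background for the higher ones. GAB1, a docking protein for SHP2 and PI3K, read 204 and 225 with SB and 410 and 437 at 7 days (log2 fold change 0.98, adjusted p = 0.000126). SOS2, a RAS exchange factor, rose from 1073 and 1175 to 1856 and 2053 (0.80, adjusted p = 4.5e-05). EPS8, an EGFR kinase substrate that links to actin, was the gene that fell, from 6497 and 5520 to 3351 and 3444 (-0.82, adjusted p = 2.86e-05). VAV3, a guanine nucleotide exchange factor gene named after its values were seen, read 0 and 3 with SB, 11 and 11 at 3 days and 33 and 33 at 7 days. In the RAS-ERK cascade 2 of 10 genes were higher and 0 lower at 3 days, and 4 were higher and 1 lower at 7 days (median 0.13), again close to the background of 54.5%. KSR1, an ERK scaffold, gave 0.73 (adjusted p = 0.0121), MAP2K1, the gene of the ERK kinase MEK1, 0.37 (adjusted p = 0.00374) and HRAS -0.51 (adjusted p = 0.0254) at 7 days, while MAPK3, which encodes ERK1, did not pass at either time.

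Genes that restrain the receptors went both ways. Of 12 tested, 4 were higher and 3 lower at 3 days, and 7 were higher and 3 lower at 7 days (median 0.41), where 29.0% and 54.5% of all tested genes passed in either direction. By direction, 14.9% of all tested genes were higher and 14.0% lower at 3 days, and 27.7% higher and 26.9% lower at 7 days. CBLB, a ubiquitin ligase that marks EGFR for degradation, rose from 320 and 360 with SB to 786 and 793 at 7 days (log2 fold change 1.22, adjusted p = 6.63e-06). PTPRK, a receptor phosphatase that acts on EGFR, rose from 2741 and 2915 to 4711 and 4966 (0.78, adjusted p = 1.49e-05). LRIG1, a transmembrane inhibitor of the ERBB receptors, fell from 1030 and 1536 to 675 and 652 (-0.92, adjusted p = 0.000456). ERK-responsive transcripts were likewise split, with 5 of 15 higher and 3 lower at 3 days and 6 higher and 5 lower at 7 days (median -0.12), as calls over all tested genes were too (14.9% and 14.0%, then 27.7% and 26.9%). The ERK phosphatase gene DUSP4 read 423 and 495 with SB, 723 and 816 at 3 days and 1590 and 1714 at 7 days (1.85 at 7 days, adjusted p = 1.8e-07). In the other direction EPHA4, an ephrin receptor gene, gave -2.53 (adjusted p = 1.41e-08) and FOSL1, an AP-1 subunit gene, gave -1.59 (adjusted p = 9.21e-06).

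Partner molecules of the ligands and receptors formed a short list of 4, of which 1 was higher and 3 lower at 3 days and 1 higher and 2 lower at 7 days, where 29.0% and 54.5% of all tested genes passed. CD9, a tetraspanin that associates with the HB-EGF precursor, read 3637 and 3722 with SB and 1815 and 1765 at 7 days (log2 fold change -1.04, adjusted p = 1.29e-06). MUC1, a mucin that associates with ERBB receptors, read 448 and 1289 with SB, 169 and 177 at 3 days and 330 and 330 at 7 days (-1.20 at 7 days, adjusted p = 0.0105), with the SB libraries again far apart. CD44, whose heparan sulfate forms hold HB-EGF at the cell surface, rose from 21533 and 17337 to 25677 and 27090 (0.45, adjusted p = 0.00325). The last list held EPGN, NRG2, NRG3, NRG4 and ERBB4. NRG3 was at 0 in all libraries and ERBB4 was under the filter, and of the 3 genes tested 0 were called in any of the 3 comparisons. The largest of their differences from SB was 0.42, for NRG4 at 3 days (adjusted p = 0.273).

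**Figure D5:**
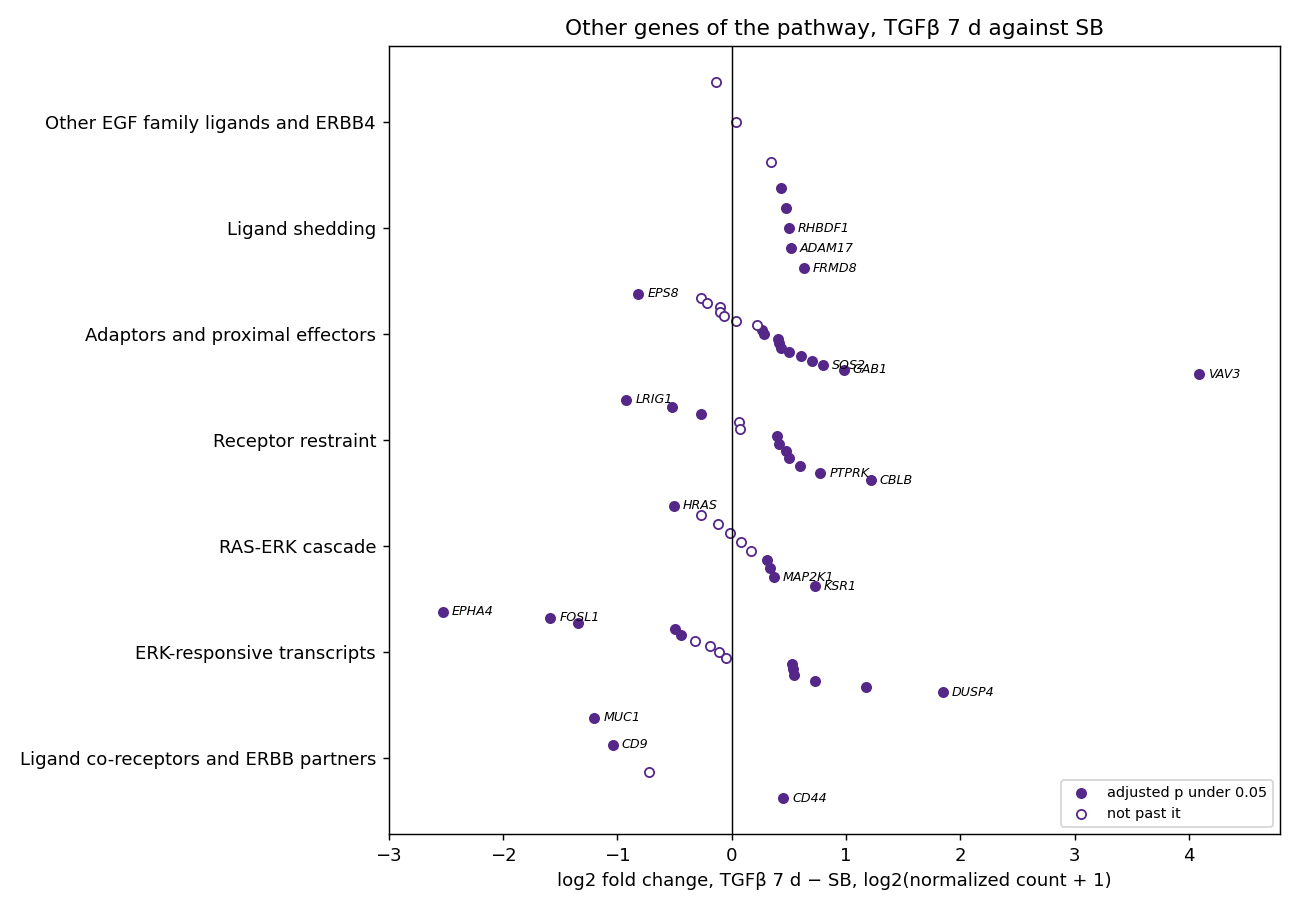
Log2 fold change at 7 days of TGFβ against SB (x axis) of each tested gene in the 7 lists of other pathway genes (y axis; the vertical spread within a list follows the order of the values); filled points passed an adjusted p of 0.05. All 5 ligand shedding genes lie right of 0, ERK-responsive transcripts run from -2.53 (EPHA4) to 1.85 (DUSP4), and VAV3 lies furthest right at 4.09 from normalized counts of 0 and 3 with SB.

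The genes whose course across the 6 libraries was most like each receptor were listed as a description, among 11388 genes with a mean of at least 100. For EGFR they were KIAA1671 (Pearson r = 0.994), SAP30L-AS1 (0.9895) and LPP (0.9821), and for ERBB2 SCNN1A (0.9883), MUC1 (0.984) and TNRC6C-AS1 (0.9823). For ERBB3 they were ZNF738 (0.9989), OAT (0.9969) and ANKRD32 (0.9961), and 229 genes reached an r over 0.95 with ERBB3, against 48 with EGFR and 54 with ERBB2. The 6 points share group, library and the spread of the SB pair.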

How the data were processed

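RNA-seq libraries of H2087-LCC cells in 3 groups of 2 (SB 3 days, TGFβ 3 days, TGFβ 7 days) were analyzed. The authors checked the reads with FastQC (0.11.5), aligned read pairs to hg19 by STAR, counted uniquely mapped reads per gene in HTSeq (0.6.1p1), normalized by library size and used DESeq2 (given as version 3.4). The annotation release is not given in the sources used here. The deposited values are normalized counts rounded to whole numbers, a score and not raw counts, for 21293 genes, 1316 of them at 0 throughout, so no count model was used here. The labels do not say whether the 2 libraries of a group came from separate cultures, and a figure legend of the paper calls them technical replicates. The p-values therefore measure only the spread between these libraries and not that between independent cultures. An exact permutation test of 2 against 2 cannot go below p = 0.333.

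Values were transformed as log2(value + 1), which understates changes of low genes. Genes whose mean reached 10 (14395) entered a limma 3.58.1 fit (R 4.3.3) on the group alone, with 3 residual degrees of freedom and empirical Bayes with a trend on the mean, and adjusted by Benjamini-Hochberg at 0.05 for each of the 3 comparisons. In simulated data 96 of 100 genes changed 2-fold and 59 of 100 changed 1.5-fold were recovered for TGFβ 7 days against SB (14360 genes). Gene positions, merged exon lengths, shared exons and windows of 50 bases came from GENCODE on GRCh37, and promoters from RefSeq on GRCh38.p14. The members and lists were chosen with earlier results of these data known. All members were named, and of each list the called genes whose mean reached 100 and that had the 3 largest absolute log2 fold changes at 7 days. VAV3, MAPK3, EPGN, NRG3, NRG4 and ERBB4 were described outside this rule. Some genes of the lists are not reported here and were left out of the counts. Alternatives were 10 settings and leaving out each of the 6 libraries in turn.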

Additional observations from a re-analysis of the deposited data

Results flagged for a closer look

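The effect of TGFβ against SB differed between 7 and 3 days for 4 of the 10 genes by the test of that difference itself (limma, adjusted over 14395 genes). By the same test 33.2% of all tested genes passed, so the count of 4 lies near that share. EGF gained 1.09 on the log2 scale between these times (adjusted p = 7.68e-05), and both 7-day libraries lay above both 3-day libraries. NRG1 changed by -2.52 (adjusted p = 2.66e-05), HBEGF by -1.05 (adjusted p = 0.00127) and EREG by -0.51 (adjusted p = 0.016), each with both 7-day libraries below both 3-day libraries. For HBEGF the effect against SB was 0.42 at 3 days and -0.64 at 7 days, of which the former was not called. Both effects share the SB libraries, which cancel in this difference, and the time in culture cannot be told apart from the duration of TGFβ.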

How the results depend on the processing

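Of the members' log2 fold changes under 10 other settings and with each library left out, 452 kept direction and side of the threshold, 10 lost the call, 10 gained it and 5 changed sign. The changes of sign were of values near 0 between 3 and 7 days of TGFβ. ERBB3 gave 0.0038 with equal library totals and 0.0087 with upper-quartile scaling, and ran from -0.11 to 0.10 with a library left out (0.0095 without TGFβ 3 days library 1 and 0.103 without TGFβ 7 days library 1), and BTC ran from -0.20 to 0.11 (without TGFβ 3 days library 1). Calls among all tested genes between 3 and 7 days fell from 4775 to 3042 without the filter on low values and 3122 without the trend. With a library left out they ran from 2314 to 5554 there, from 2609 to 3877 at 3 days against SB and from 5913 to 7687 at 7 days against SB; the cause was not tested. Members called ran from 4 to 7 at 3 days, 7 to 9 at 7 days and 3 to 4 between the times. AREG was not tested at a mean of at least 50. List counts stayed within 1.5 times in 282 cases and moved further in 54. A lone library left in a group is assumed to vary like the others.

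The replicate numbers did not pair the libraries: the difference of replicate 1 and 2 correlated across genes at 0.208 for SB and TGFβ 3 days, -0.13 for SB and TGFβ 7 days and -0.647 for both TGFβ times. With the replicate block 7, 8 and 4 members were called, and HBEGF (0.42, adjusted p = 0.0251) and NRG1 (-0.55, adjusted p = 0.0398) passed at 3 days against SB. Calls among all tested genes were 3943, 7546 and 4485 with the block. Few counts and the near-identical copy AREGB limit the precision for AREG.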
